A study of Mus musculus with 4 samples.

Results

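The genes of 3 families of conjugating enzymes were followed in mouse liver nuclei, namely the UDP-glucuronosyltransferases (UGT), the cytosolic sulfotransferases (SULT) and the cytosolic and related glutathione S-transferases (GST). They were chosen by gene symbol alone, as symbols starting with Ugt1a, Ugt2a, Ugt2b, Ugt3a, Sult, Gsta, Gstm, Gstp, Gstt, Gstk, Gsto or Gstz and a digit, without pseudogenes. Of 32285 genes in the count tables, 64 met this rule, and the 45 with at least 50 unique molecular identifiers (UMIs, each counting 1 captured RNA molecule) over the 4 libraries were described: 19 of 22 GST genes, 9 of 21 SULT genes and 17 of 21 UGT genes. Together the 64 genes held 750745 UMIs, of which 331408 came from GST, 207442 from SULT and 211895 from UGT genes. The 19 genes left out were Gsta1 (7 UMIs), Gstm5 (47) and Gstt4 (20) among the GST genes, Ugt2a1 (16), Ugt2a2 (1), Ugt2b37 (26) and Ugt2b38 (8) among the UGT genes, and 12 SULT genes with 5 to 42 UMIs. Just above the minimum lay Gsto2 with 58 and Sult2a2 with 81 UMIs.

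The study sequenced RNA of single nuclei from non-tumor liver tissue. The mice were male, received the liver carcinogen diethylnitrosamine (DEN) at 25 mg/kg when 14 days old, and were killed at 12 months. The labels gave Brca1-WT to 2 libraries and Brca1-KO to 2, each group with biological replicates 1 and 2; all 4 had received DEN, so there was no untreated liver. The series title concerns Brca1 in the liver and its relation to the methyltransferase Bhmt. The labels give neither the deleted exons of Brca1 nor the promoter of a Cre driver, and whether the libraries of a group came from separate animals is said only by the word "bio" before the replicate number. With 2 libraries a group, p-values between genotypes rest on the spread between these libraries, with information shared over genes. Those given below for zones of hepatocytes rest on how much the zone difference varied over the 4 libraries.

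Conjugation is the step of detoxification that joins a water-soluble group to a drug, steroid, bile acid, bilirubin or reactive metabolite, so that it can leave the cell in bile or urine. UGT enzymes transfer a sugar, mostly glucuronic acid, in the endoplasmic reticulum; SULT enzymes transfer sulfate in the cytosol; GST enzymes join glutathione to electrophiles. In the liver these enzymes are made chiefly by hepatocytes, which differ along the lobule between the portal tract, where blood enters, and the central vein, where it leaves.

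The 4 libraries held 5209 to 7833 barcodes with 36662067 to 45638888 UMIs, and 4795 to 6970 nuclei each were kept. Hepatocyte-like nuclei, which had all 8 hepatocyte markers in at least 10% of nuclei, numbered 2793 and 4020 in Brca1-WT replicates 1 and 2 and 2573 and 4091 in Brca1-KO-labelled replicates 1 and 2, an order kept for every set of 4 values below. They held 29181315 to 38783041 UMIs per library. The Brca1-KO-labelled replicate 2 stood apart: 95.5% of its hepatocyte-like nuclei lay in 3 clusters that held 1.93%, 2.44% and 0.0777% of those of the other libraries. Brca1 itself, summed over hepatocyte-like nuclei, was at 13.0, 12.1, 18.6 and 6.10 CPM, so that the Brca1-KO-labelled replicate 1 had the highest and replicate 2 the lowest level (log2 difference −0.06, standard error 0.53, edgeR adjusted p = 0.999). Libraries are therefore named by their label throughout; a 3′ tag outside a deleted part does not check a deletion. Bhmt was at 1860.5, 1185, 726 and 288 CPM (log2 difference −1.62, standard error 0.53, edgeR adjusted p = 0.989). CPM is the usual scaling of counts to a common total, here that of the nuclei summed. Libraries shared 9 to 20 cell barcodes per pair.

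The genes lie in clusters of close copies, which bears on how far single members can be told apart. The library kit reads the 3′ end of transcripts. In the last 400 bases of GENCODE vM21 transcripts, all 9 Ugt1a genes had at least 50% of their 50-base stretches in common with another gene, with a median of 100%. This is the textbook layout of the Ugt1a locus, in which each gene has its own promoter and first exon and all share the remaining exons. Of the 36 other members, 22 shared no 50-base stretch, and 4 shared at least 50%: Gstp1 (78.3%), Sult2a2 (66.1%), Gstp2 (63.1%) and Gsta2 (55.7%). How reads on shared sequence were assigned, and whether strand was used, is not stated by labels or file headers, so levels of single genes of these kinds are uncertain.

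RefSeq promoters (GRCm38.p6, 250 bases before to 50 after the transcription start) were matched by symbol for 39 of the 45 members. Those of 6 genes are given here, for members on which the zone results turn: the most counted GST and SULT genes, the members with the largest difference toward the central vein and toward the portal tract, and a pair of Ugt1a genes that differed in opposite directions although they share their 3′ exons. Capitals mark matches to the antioxidant response element core TGACNNNGC or the TCF motif CTTTGAT, on either strand. They are Gsta3 at chr1:21240335-21240634 (plus strand), Gstm3 at chr3:107969125-107969424 (minus strand), Sult2a8 at chr7:14446538-14446837 (minus strand) (one of 2 annotated starts), Sult5a1 at chr8:123158231-123158530 (minus strand), Ugt1a6a at chr1:88134559-88134858 (plus strand) and Ugt1a9 at chr1:88070529-88070828 (plus strand).
Gsta3: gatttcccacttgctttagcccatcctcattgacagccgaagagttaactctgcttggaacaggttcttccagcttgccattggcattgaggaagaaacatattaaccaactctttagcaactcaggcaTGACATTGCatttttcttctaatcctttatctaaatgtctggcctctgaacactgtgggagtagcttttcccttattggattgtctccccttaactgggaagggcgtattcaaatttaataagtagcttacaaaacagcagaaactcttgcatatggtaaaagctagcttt
Gstm3: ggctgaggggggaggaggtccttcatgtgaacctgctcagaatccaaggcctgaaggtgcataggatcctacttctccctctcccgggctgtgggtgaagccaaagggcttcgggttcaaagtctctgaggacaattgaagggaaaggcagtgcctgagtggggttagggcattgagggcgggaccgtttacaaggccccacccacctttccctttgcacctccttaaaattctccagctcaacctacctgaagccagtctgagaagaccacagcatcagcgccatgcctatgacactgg
Sult2a8: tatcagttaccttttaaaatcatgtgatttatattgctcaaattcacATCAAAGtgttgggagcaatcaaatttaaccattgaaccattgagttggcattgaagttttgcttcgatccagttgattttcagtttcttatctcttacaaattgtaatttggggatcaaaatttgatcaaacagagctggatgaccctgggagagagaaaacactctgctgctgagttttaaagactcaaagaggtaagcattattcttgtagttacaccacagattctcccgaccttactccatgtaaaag
Sult5a1: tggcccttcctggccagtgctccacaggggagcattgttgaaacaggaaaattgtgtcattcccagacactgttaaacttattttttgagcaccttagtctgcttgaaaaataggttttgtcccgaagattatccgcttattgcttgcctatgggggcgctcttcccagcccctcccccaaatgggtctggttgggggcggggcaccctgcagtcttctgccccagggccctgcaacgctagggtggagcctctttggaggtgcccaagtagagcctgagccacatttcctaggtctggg
Ugt1a6a: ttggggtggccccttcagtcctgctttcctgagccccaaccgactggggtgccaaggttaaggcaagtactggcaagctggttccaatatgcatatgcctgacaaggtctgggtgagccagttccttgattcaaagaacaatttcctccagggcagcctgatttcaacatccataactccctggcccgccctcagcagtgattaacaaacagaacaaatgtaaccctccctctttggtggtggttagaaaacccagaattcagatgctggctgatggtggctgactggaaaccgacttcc
Ugt1a9: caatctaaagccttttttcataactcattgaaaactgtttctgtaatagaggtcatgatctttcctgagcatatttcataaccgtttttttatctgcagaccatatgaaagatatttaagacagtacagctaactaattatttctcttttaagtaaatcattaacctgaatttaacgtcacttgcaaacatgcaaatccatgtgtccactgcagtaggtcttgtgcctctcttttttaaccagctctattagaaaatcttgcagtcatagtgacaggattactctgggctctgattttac
In these windows 4 motifs were searched on both strands and counted separately, also where matches overlap. The antioxidant response element core, bound by Nrf2, occurred in 2 of 39 members (5.13%) and in 14.0% of 27025 genes with a promoter of the same length. The xenobiotic response element core GCGTG, bound by the aryl hydrocarbon receptor, occurred in 8 of 39 members (20.5%) and 35.2% of genes. The TCF motif, bound by the factors of Wnt signaling, occurred in 1 of 39 (2.56%) and 4.29%. The spaced direct repeat bound by HNF4 occurred in 0 of 39 members and in 13 genes (0.0481%). The matches describe letters in these windows and nothing further.

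Along the lobule, 16 members were higher in pericentral and 3 in periportal hepatocyte-like nuclei, while 23 of the 42 tested were not called. Each hepatocyte-like nucleus had been placed by a score over 18 pericentral and 16 periportal genes, none of them a member, and each library was cut by this score into 3 equal zones. Counts were then summed per zone and library and compared between the outer zones with the library as a block. Over all 12666 genes tested, edgeR's quasi-likelihood test called 13.3% higher in the pericentral and 13.8% higher in the periportal zone. The median log2 difference, pericentral minus periportal, was 0.34 over the 42 members and −0.0025 over all genes. Of 17 GST genes 5 were called pericentral and 0 periportal; of 8 SULT genes 4 and 1; and of 17 UGT genes 7 and 2. The subfamilies were uneven: 4 of 5 Ugt2b and 4 of 5 Gstm genes were called pericentral, against 2 of 9 Ugt1a genes and 0 of 3 Gstp genes. Gstm6, Gsto2 and Sult2a2 had too few counts to be tested.

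**Figure D1:**
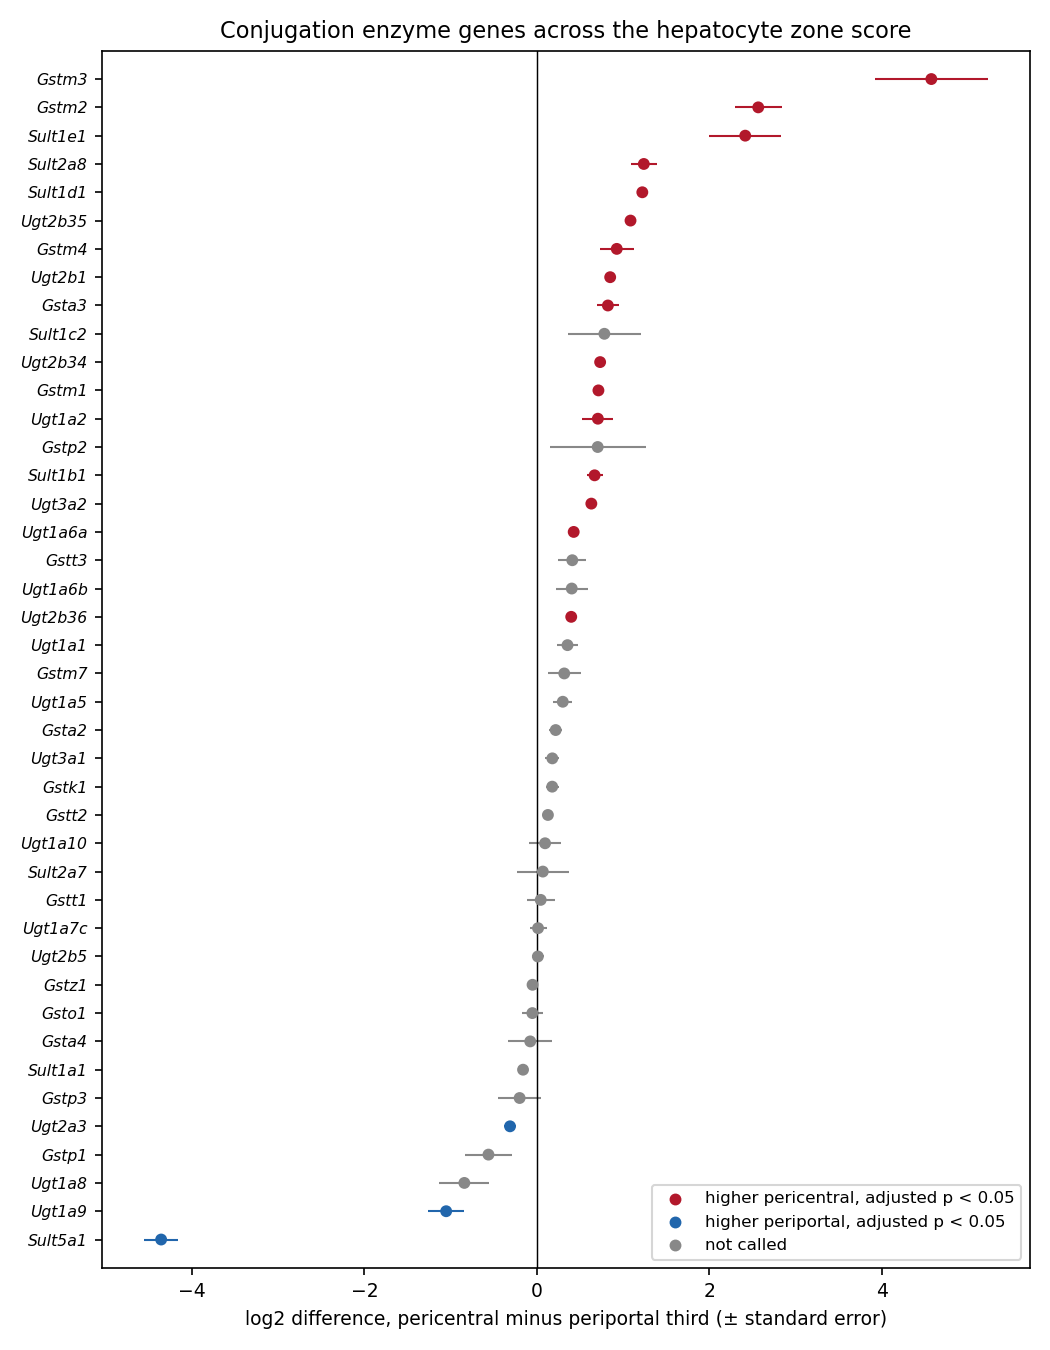
Log2 difference between the pericentral and the periportal zone of hepatocyte-like nuclei for the 42 members tested, ordered by its size, with bars of 1 standard error from edgeR's fit over 4 libraries. The 16 members called pericentral are red, the 3 called periportal blue and the 23 not called grey, and the scale runs from 4.57 for Gstm3 to −4.36 for Sult5a1.

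Among the GST genes, the mu class had the largest differences. Gstm2, a mu-class transferase, was at 9.12, 4.41, 6.71 and 1.004 CPM in the pericentral zone against 2.15, 0.414, 0.753 and 0.279 CPM in the periportal zone (log2 difference 2.57, standard error 0.27, edgeR adjusted p = 7.42e-05; 211 and 34 UMIs). The pericentral value was the higher one in each library, but the Brca1-KO-labelled replicate 2, the lowest of the 4, lay below the periportal value of Brca1-WT replicate 1. In every library Gstm2 was higher in endothelial-like and in stellate and mesenchymal-like nuclei, described below, than in hepatocyte-like nuclei as a whole. The part of RNA from such cells in its zone difference was not tested. Gstm3, another mu-class member, was at 2.05, 1.10, 1.36 and 1.51 CPM in the pericentral zone against 0, 0, 0.215 and 0 CPM in the periportal zone, from 65 and 2 UMIs. Its ratio of summed levels was 29.0, with an exact 95% interval of 7.70 to 244 for counting error (log2 difference 4.57, standard error 0.65, edgeR adjusted p = 0.000504). In 3 of the 4 libraries no UMI of Gstm3 was seen in the periportal zone. Gstm4 was at 2.66, 4.21, 4.20 and 2.01 CPM in the pericentral zone against 1.40, 2.28, 2.15 and 1.02 CPM in the periportal zone (log2 difference 0.93, standard error 0.20, edgeR adjusted p = 0.00568), and the ranges of the zones overlapped between libraries. Gsta3, the alpha-class enzyme that conjugates the epoxide of aflatoxin in mice, was at 1318, 1746, 1545 and 2927 CPM in the pericentral zone against 524, 1025, 982 and 1968 CPM in the periportal zone (log2 difference 0.82, standard error 0.13, edgeR adjusted p = 0.00714). Within each library the pericentral level was the higher one, while the periportal level of the Brca1-KO-labelled replicate 2 exceeded the pericentral level of the other 3. Gstm1, at 38.5, 59.5, 51.8 and 41.0 CPM in the pericentral zone against 22.8, 36.3, 29.3 and 27.2 CPM in the periportal zone, completed the GST genes called (log2 difference 0.71, standard error 0.07, edgeR adjusted p = 2.96e-05).

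Among the sulfotransferases, 4 genes were pericentral and 1 was strongly periportal. Sult1e1, the oestrogen sulfotransferase, was at 5.94, 9.73, 15.4 and 0.717 CPM in the pericentral zone against 0.644, 0.621, 5.38 and 0 CPM in the periportal zone, from 312 and 62 UMIs (log2 difference 2.42, standard error 0.42, edgeR adjusted p = 0.00652). It was higher in the pericentral zone of every library, although the level ranged widely, with 15.4 CPM in the Brca1-KO-labelled replicate 1 and 0.717 in replicate 2. Sult2a8, a bile acid sulfotransferase, was at 1304, 1457, 877 and 1932 CPM in the pericentral zone against 799, 505, 319.6 and 789.7 CPM in the periportal zone (log2 difference 1.24, standard error 0.15, edgeR adjusted p = 0.00408). All 4 pericentral values exceeded all 4 periportal ones. Sult1d1, which acts on catecholamines and other small phenols, was at 136, 216, 191 and 60.8 CPM in the pericentral zone against 56.0, 82.8, 93.7 and 25.8 CPM in the periportal zone (log2 difference 1.22, standard error 0.06, edgeR adjusted p = 4.59e-07). The difference was present in each library, on top of a lower level in the Brca1-KO-labelled replicate 2. Sult1b1, a sulfotransferase of phenols and thyroid hormone, was the fourth SULT gene called pericentral (log2 difference 0.67, standard error 0.09, edgeR adjusted p = 0.000433). Sult5a1, whose substrates are poorly known, ran the other way at 3.69, 11.03, 8.29 and 1.87 CPM in the pericentral zone against 90.7, 146, 191 and 60.4 CPM in the periportal zone (log2 difference −4.36, standard error 0.20, edgeR adjusted p = 5.59e-05). The groups did not come near each other: the lowest periportal value was 60.4 CPM and the highest pericentral value 11.03.

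Of the UGT genes, the Ugt2b enzymes of steroids and bile acids were mostly pericentral. Ugt2b35 was at 101, 123, 101 and 229.5 CPM in the pericentral zone against 57.3, 53.8, 45.9 and 99.4 CPM in the periportal zone (log2 difference 1.09, standard error 0.07, edgeR adjusted p = 2.91e-06). Ugt2b1 was at 106, 66.3, 44.2 and 135 CPM in the pericentral zone against 56.4, 37.5, 23.1 and 78.7 CPM in the periportal zone (log2 difference 0.85, standard error 0.06, edgeR adjusted p = 3.03e-06). In both, the pericentral value was higher in 4 of 4 libraries. The ranges of the zones overlapped between libraries for Ugt2b1 and only just did not for Ugt2b35. Ugt2b34 and Ugt2b36 had log2 differences of 0.73 and 0.40 (edgeR adjusted p = 5.84e-06 and 0.000252), whereas Ugt2b5, at 288, 271, 269 and 464 CPM in the pericentral zone against 348, 256, 255 and 408 CPM in the periportal zone, was not called (log2 difference 0.01, standard error 0.07, edgeR adjusted p = 0.934). Ugt3a2, of the small subfamily that uses other sugars, was called pericentral (log2 difference 0.63, standard error 0.06, edgeR adjusted p = 2.59e-05), and its neighbour Ugt3a1 was not (log2 difference 0.18, standard error 0.08, edgeR adjusted p = 0.144). At the Ugt1a locus, Ugt1a6a, an enzyme of planar phenols, and Ugt1a2 were called pericentral with log2 differences of 0.43 and 0.71 (edgeR adjusted p = 0.00071 and 0.015). Ugt1a9, an enzyme of bulky phenols, was called periportal at 0.615, 2.71, 1.47 and 3.01 CPM in the pericentral zone against 2.15, 5.18, 3.55 and 5.12 CPM in the periportal zone (log2 difference −1.05, standard error 0.21, edgeR adjusted p = 0.00393). Ugt1a1, the bilirubin transferase, was not called (0.35, standard error 0.13, edgeR adjusted p = 0.0624). Ugt2a3 was called periportal at 70.4, 74.9, 88.6 and 49.5 CPM in the pericentral zone against 102, 84.6, 105 and 60.1 CPM in the periportal zone (log2 difference −0.31, standard error 0.07, edgeR adjusted p = 0.00526), the smallest difference of any called member. The split of Ugt1a counts by gene is uncertain, as given above for their 3′ ends.

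Several abundant members had levels close to each other in the outer zones and were not called. Gstz1, the maleylacetoacetate isomerase of tyrosine breakdown, was at 296, 322, 264 and 244 CPM in the pericentral zone against 285, 337, 291 and 248 CPM in the periportal zone (log2 difference −0.05, standard error 0.05, edgeR adjusted p = 0.493). Gstt2, a theta-class transferase, was at 125, 139, 102 and 159.6 CPM in the pericentral zone against 115, 125, 89.2 and 153 CPM in the periportal zone (log2 difference 0.13, standard error 0.05, edgeR adjusted p = 0.0771). Sult1a1, the main phenol sulfotransferase, was at 129, 211, 204 and 81.5 CPM in the pericentral zone against 137, 225, 216 and 105 CPM in the periportal zone, with the periportal value higher in 4 of 4 libraries (log2 difference −0.16, standard error 0.06, edgeR adjusted p = 0.0695). These misses do not show equal levels. Gsta2, an alpha-class gene induced through Nrf2, was just outside the threshold (log2 difference 0.22, standard error 0.07, edgeR adjusted p = 0.0506). The pi-class genes Gstp1 and Gstp2 had differences of −0.56 and 0.70 with standard errors of 0.28 and 0.56, and their levels varied between libraries more than between zones.

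Few calls depended on 1 library. Without the Brca1-KO-labelled replicate 2, 15 members were called pericentral and 4 periportal. Sult2a8 there kept its difference (1.22) and lost its call (edgeR adjusted p = 0.0721), and Ugt1a2 was also lost (0.0987) and without the Brca1-KO-labelled replicate 1 (0.0625). Gstm2 without Brca1-WT replicate 1 and Sult1e1 without the Brca1-KO-labelled replicate 1 fell under the filter on low counts and were not tested. With every nucleus thinned to 1000 UMIs, 12 members were called pericentral and 1 periportal: Ugt2a3 was lost (log2 difference −0.17, edgeR adjusted p = 0.446), and Gstm2, Gstm3, Gstm4, Sult1e1, Ugt1a2 and Ugt1a9 were not tested. In the Brca1-KO-labelled replicate 2 the pericentral zone was deeper, with a median of 8804 UMIs a nucleus against 6651.5 in the periportal zone. Markers of other cell classes, 76 genes summed, held a median of 0.0262% to 0.0420% of a nucleus's UMIs in pericentral and 0.0299% to 0.0447% in periportal zones; their part in the differences was not tested. Between 5.48% and 24.1% of the nuclei of a zone lay within 0.1 standard deviations of a cut, so the zones are ranges of a score and not cell types.

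Finer steps showed how the members were spread. Each library was cut into 10 equal groups of nuclei along the score, and each member's level in a group was expressed as a share of its summed level over the 10. Evenly spread RNA would give equal shares. The most pericentral group held a median of 43.1% of Sult1e1 (17.0% to 59.6% over libraries), 33.6% of Gstm2 (22.8% to 34.3%) and 31.2% of Gstm3 (23.6% to 35.1%). These shares rest on few counts, with 126, 83 and 28 UMIs in that group over the 4 libraries. Sult1e1 had 14 UMIs in all nuclei of the Brca1-KO-labelled replicate 2. Sult1e1 and Gstm2 peaked in that group in 4 of 4 libraries. Sult5a1 was the mirror image, with a median of 28.7% (23.4% to 38.8%) in the most periportal group and 0.718% in the most pericentral one. Members of the broad kind were flatter: the most pericentral group held a median of 15.1% of Ugt2b1, 13.2% of Sult2a8, 12.5% of Gsta3 and 9.26% of Gstz1. Ugt2b1, Ugt2b34, Ugt2b35, Ugt2b36, Gstm1 and Gsta2 also peaked in the most pericentral group in 4 of 4 libraries, whereas Sult2a8 did so in 2. These shares are a description, with no test.

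**Figure D2:**
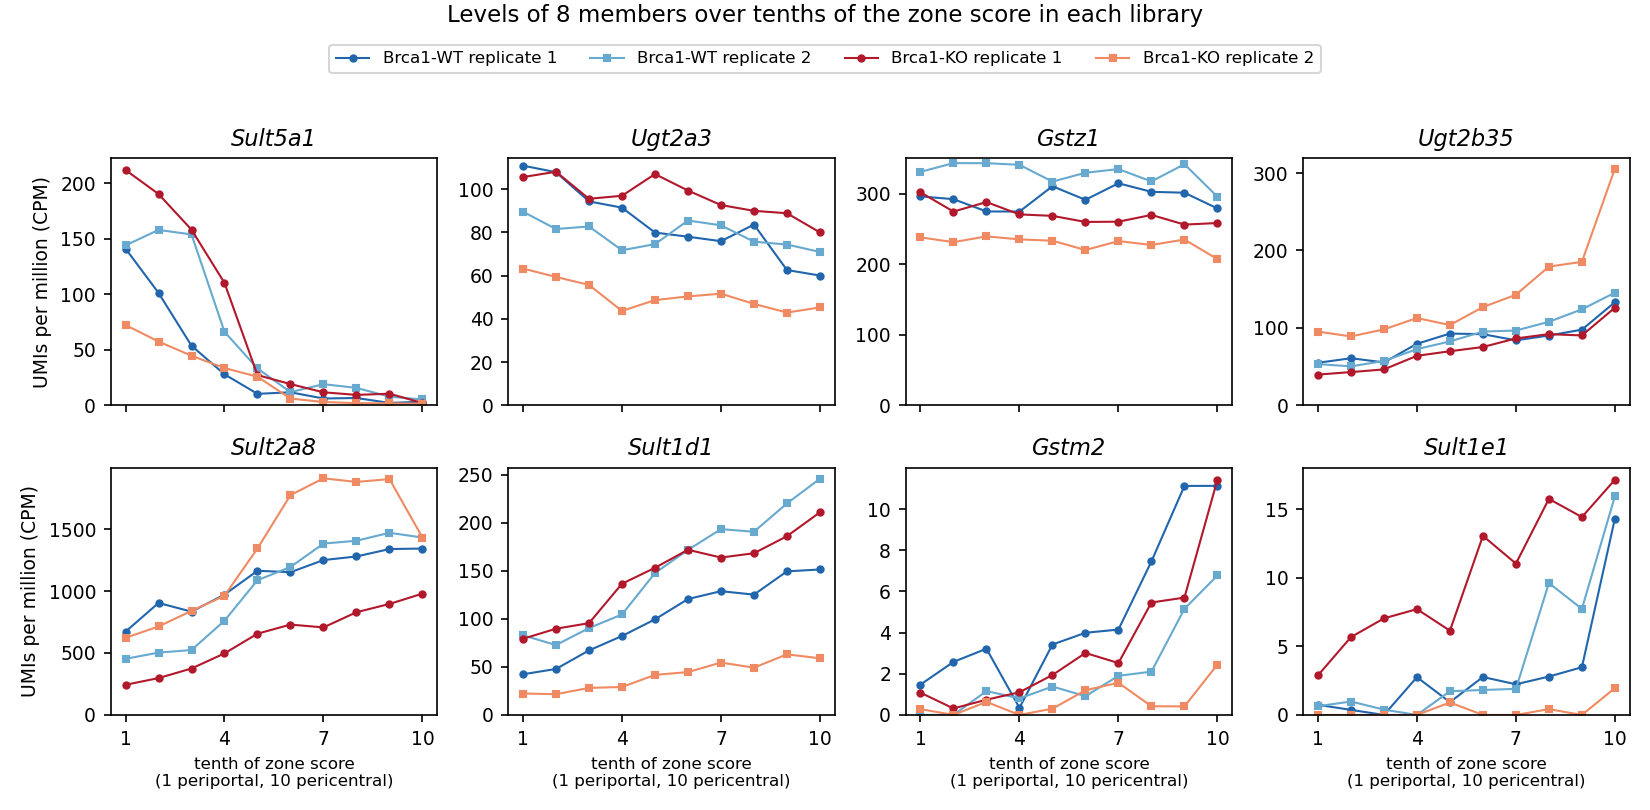
Level of 8 members (y axis, CPM, own scale per gene) in 10 equal groups of hepatocyte-like nuclei along the zone score, from 1 (periportal) to 10 (pericentral), with 1 line for each of the 4 libraries. Sult1e1 and Gstm2 were highest in group 10 in 4 of 4 libraries, Sult5a1 fell away from the portal end, and Sult2a8 in the Brca1-KO-labelled replicate 2 was lower in group 10 than in groups 6 to 9.

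The difference between zones was then compared between genotypes. Of the 12666 genes, 0 were called for a zone-by-genotype difference by edgeR (0%; 390 genes, 3.08%, had an unadjusted p below 0.05). DESeq2 called 0 genes too. Among the 42 members, Sult1e1, Sult1c2, Sult2a7 and Gsta3 were below 0.05 unadjusted and 0 after adjustment (smallest edgeR adjusted p over all genes 0.9999). For Sult1e1, the log2 difference between zones in the Brca1-KO-labelled libraries minus that in Brca1-WT was −1.94 (standard error 0.58), and the Brca1-KO-labelled replicate 2 had a periportal level of 0. Without the Brca1-KO-labelled replicate 1, 36 genes were called, 0 of them members. With nuclei thinned to 1000 UMIs 2 genes were called, 0 of them members.

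Between genotypes, no member was called in hepatocyte-like nuclei. Of 15113 genes tested by edgeR, 0 were called (0%; smallest adjusted p = 0.257), 499 had an unadjusted p below 0.05 (3.3%), and DESeq2 called 23, of which 0 were members. Of 44 members tested (Gsto2 had too few counts), 1 was below 0.05 unadjusted. Gstt3, a theta-class transferase, was at 16.5, 19.4, 12.8 and 6.84 CPM (log2 difference Brca1-KO minus Brca1-WT −0.90, standard error 0.34, unadjusted p = 0.0475, edgeR adjusted p = 0.989). Both Brca1-KO-labelled libraries were below both Brca1-WT libraries, and replicate 2 was the lowest. Gsta2 was at 47.1, 69.3, 43.6 and 33.3 CPM (−0.62, standard error 0.27, edgeR adjusted p = 0.989), with the same order of groups. Its 3′ sequence is shared in part with other genes, as given above.

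The next members by p overlapped between groups, except Sult2a7. Ugt3a1, which uses N-acetylglucosamine, was at 52.9, 32.7, 48.6 and 88.3 CPM (0.65, standard error 0.39), with the Brca1-KO-labelled libraries on both sides of one Brca1-WT library. Gsto1, an omega-class enzyme that reduces dehydroascorbate, was at 8.07, 12.3, 8.43 and 6.62 CPM (−0.47, standard error 0.30). Sult2a7, a sulfotransferase of the bile acid and steroid subfamily, was at 3.52, 1.03, 3.84 and 5.07 CPM (0.94, standard error 0.61). Sult1b1 was at 19.3, 15.4, 15.9 and 10.1 CPM (−0.44, standard error 0.29). The edgeR adjusted p was 0.989 for each of these 4. Groups did not overlap for 6 members: Sult2a7, Ugt1a6b and Ugt2b36 lay higher in both Brca1-KO-labelled libraries (3 of 44, against 17.3% of all genes), and Gstt3, Gsta2 and Gstz1 lower (3 of 44, against 15.4%).

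**Figure D3:**
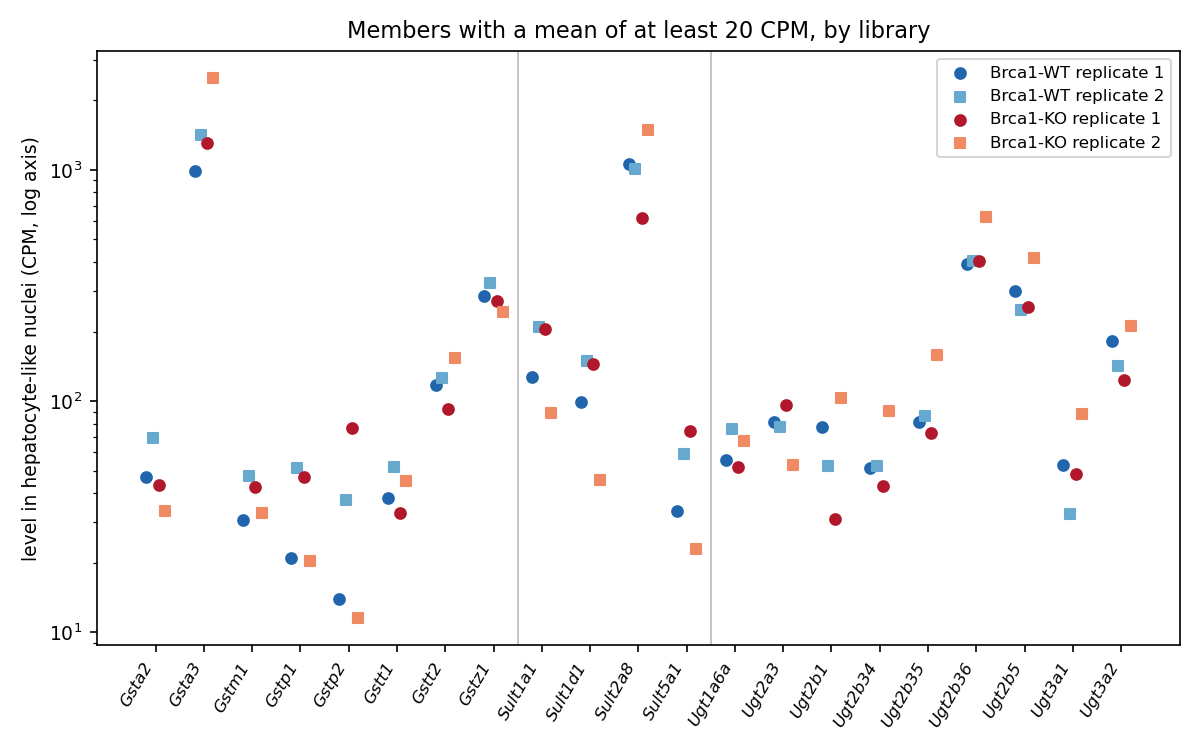
Level of the 21 members with a mean of at least 20 CPM in hepatocyte-like nuclei (y axis, CPM, log axis), with 1 point per library and gray lines between the GST, SULT and UGT genes. The Brca1-KO-labelled replicate 2 was the highest of the 4 for Gsta3, Sult2a8 and all 5 Ugt2b genes and the lowest for Sult1a1, Sult1d1 and Sult5a1.

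The abundant members are described next by family. Among GST genes, Gsta3 was at 989.8, 1414, 1304 and 2502 CPM, such that the Brca1-KO-labelled replicate 1 lay between the Brca1-WT libraries and replicate 2 above all. Gstz1 was at 285, 323, 271 and 243 CPM and Gstt2 at 117, 126, 92.5 and 154 CPM. Gstt1, a theta-class enzyme that acts on small halogenated compounds, was at 38.0, 51.7, 32.7 and 44.9 CPM and Gstm1 at 30.5, 47.5, 42.3 and 32.8 CPM, in which the groups overlapped. The pi-class genes Gstp1, at 21.1, 51.3, 46.8 and 20.4 CPM, and Gstp2, at 13.9, 37.5, 76.7 and 11.5 CPM, differed more between replicates than between groups. For Gstp2 the Brca1-KO-labelled replicate 1 was the highest of the 4 and replicate 2 the lowest.

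Among SULT genes, Sult2a8 was at 1060.3, 1010.0, 619.7 and 1486 CPM. The Brca1-KO-labelled libraries were the lowest and the highest of the 4, with the Brca1-WT libraries close together between them. Sult1a1 was at 127, 209, 205 and 89.0 CPM, Sult1d1 at 98.9, 149.6, 145 and 45.6 CPM and Sult5a1 at 33.4, 59.1, 74.1 and 23.0 CPM. In these 3 the Brca1-KO-labelled replicate 2 was the lowest, while replicate 1 was close to the higher Brca1-WT library or, for Sult5a1, above both. Sult1e1, a rarer RNA, was at 2.80, 3.94, 10.0 and 0.354 CPM, a 28.4-fold range with the Brca1-KO-labelled libraries at both ends.

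Among UGT genes, Ugt2b36 was at 390.5, 402, 405 and 626 CPM, Ugt2b5 at 300.2, 248, 255 and 415 CPM and Ugt2b35 at 81.2, 86.6, 72.8 and 158 CPM. Ugt2b34 was at 51.2, 52.2, 43.1 and 90.7 CPM and Ugt2b1 at 77.2, 52.3, 31.0 and 103 CPM. The Brca1-KO-labelled replicate 2 was the highest in all 5 Ugt2b genes. Ugt3a2, at 181, 142, 124 and 211 CPM, followed the same order as Ugt2b1, with the Brca1-KO-labelled replicate 1 lowest. Ugt1a6a, at 55.5, 75.8, 52.0 and 67.2 CPM, had overlapping groups. Ugt2a3, at 81.4, 77.7, 96.6 and 53.2 CPM, was the UGT gene of this abundance with its lowest level in the Brca1-KO-labelled replicate 2.

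By family, 15 of 18 GST genes were lower (median log2 difference −0.26), 5 of 9 SULT genes were lower (−0.0017) and 15 of 17 UGT genes were higher (0.35) in the Brca1-KO-labelled libraries, with 0 called (median over all genes −0.0060). Of the 17 UGT genes, 9 are Ugt1a genes that share 3′ sequence, so their counts are not separate and the UGT tally is not one of independent genes. The SULT median was 0.018 with DESeq2. With the replicate number as a block, 8 of 9 SULT genes were lower (median −0.29), and 12 of 17 UGT genes were higher (0.25). These splits moved with single libraries. Against the Brca1-WT mean, the medians for GST, SULT and UGT genes were −0.10, 0.22 and −0.11 in the Brca1-KO-labelled replicate 1 and −0.60, −0.77 and 0.66 in replicate 2. Without Brca1-WT replicate 2, 10 of 19 GST genes were lower. Without the Brca1-KO-labelled replicate 2, 11 of 19 GST genes were lower, 5 of 9 SULT genes higher and 10 of 17 UGT genes lower. The Brca1-KO-labelled replicate 2 was the highest of the 4 for 20 members and the lowest for 17 of 44, where over all genes it was the highest for 30.8% and the lowest for 30.9%. Among the 21 abundant members, replicates differed by over 2-fold for 2 in Brca1-WT and for 9 in the Brca1-KO-labelled libraries, with median folds of 1.36 and 1.82. Among the 19 of them not named by p above, the sign of the genotype difference changed for 16 when 1 library or another was left out. Without the Brca1-KO-labelled replicate 1, 16 of 44 members and 1744 of 15910 genes were below 0.05 unadjusted. Without replicate 2 there were 585 of 15899 genes and 4 of 45 members, Ugt2b1 (log2 difference −1.08), Sult1e1 (1.55), Sult2a8 (−0.76) and Sult1c2 (−1.35). In neither was a member called by edgeR. Fewer nuclei with a transcript and less RNA per nucleus cannot be told apart in these sums.

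Within zones of the zone score the comparison gave 0 called members of 42 in the pericentral, 41 in the middle and 38 in the periportal zone by edgeR. All genes gave 0 of 12779, 12935 and 12774 (0% each). Unadjusted p below 0.05 were found for 0, 1 and 1 members and for 408, 408 and 346 of all genes. Without the Brca1-KO-labelled replicate 1, Gstp2 was lower in the periportal zone (log2 difference −3.38), where that zone held 15.998, 24.5, 68.5 and 1.96 CPM. That fit leaves 1 library in the group, so only the size of the difference is given.

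Outside hepatocytes, few members stood at least 3 times above the level that free RNA gives. RNA released from hepatocytes can reach any droplet, and its size was measured by 17 genes that only hepatocytes make, such as albumin and fibrinogen. Their level relative to hepatocyte-like nuclei was 21.6% to 25.1% in stellate and mesenchymal-like nuclei, 27.4% to 51.0% in endothelial-like and 27.1% to 39.4% in Kupffer and macrophage-like nuclei. It was 37.3% to 55.7% in T cell-like and 53.2% to 70.9% in B cell-like nuclei. Of members with at least 20 UMIs in the class, 4 of 24 in stellate and mesenchymal-like and 1 of 26 in endothelial-like nuclei were at least 3 times above this level in all 4 libraries, against 0 of 20, 17 and 13 in the other 3 classes. All 5 cases were GST genes. Neutrophil-like and plasma cell-like nuclei were few (71 and 45), with free RNA levels of 12.8% to 98.8%. The classes come from clusters of the same nuclei, so these values are descriptions.

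In stellate and mesenchymal-like nuclei, Gstt1 was at 68.1, 105, 97.8 and 66.2 CPM, 5.86 to 13.9 times the level that free RNA gives and above the hepatocyte-like level in 4 of 4 libraries. Gstm1 was at 65.8, 108, 69.7 and 30.8 CPM (3.74 to 9.37 times), above hepatocyte-like nuclei in 3 of 4 libraries. The exception was the Brca1-KO-labelled replicate 2, which had the lowest stellate value. Gstm2 was at 9.94, 7.53, 14.6 and 10.8 CPM (9.19 to 52.5 times) and Gsta4, which conjugates the lipid peroxidation product hydroxynonenal, at 6.88, 8.28, 7.28 and 6.93 CPM (5.78 to 29.2 times). Both exceeded hepatocyte-like nuclei in 4 of 4 libraries. Gstm2 was also at 11.2, 10.6, 10.1 and 7.34 CPM in endothelial-like nuclei, 7.22 to 17.6 times the free RNA level. By contrast Sult1a1, at 91.2, 155, 145 and 93.3 CPM in endothelial-like nuclei, stayed under 3 times the free RNA level of 42.1, 67.2, 56.4 and 45.4 CPM. Gsta3 and Sult2a8, the members with the most UMIs, were at or below the free RNA level in stellate, endothelial, Kupffer and B cell-like nuclei of every library: Gsta3 had 0.447 to 0.633 times that level in endothelial-like nuclei.

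**Figure D4:**
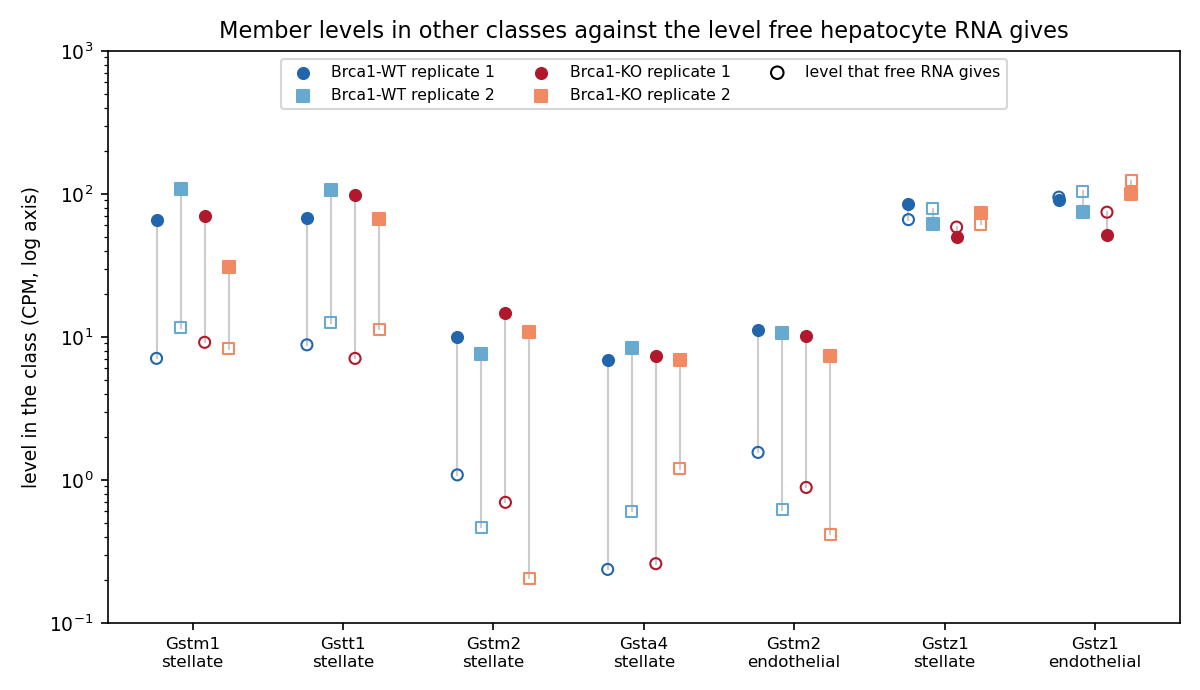
Level of members in stellate and mesenchymal-like or endothelial-like nuclei (filled, CPM, log axis) and the level that free hepatocyte RNA gives there (open), with 1 pair of points per library. Gstm1, Gstt1, Gstm2 and Gsta4 lie at least 3 times above the open points in stellate and mesenchymal-like nuclei and Gstm2 in endothelial-like nuclei, while Gstz1, shown for comparison, lies close to them.

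Between genotypes in these classes, 0 members were called by edgeR among 24 tested in endothelial-like, 21 in stellate and mesenchymal-like, 16 in Kupffer and macrophage-like, 14 in T cell-like and 9 in B cell-like nuclei. Over all genes 0 of 11161, 9721, 8297, 6036 and 4023 were called (0% each), with 269, 384, 360, 141 and 282 below 0.05 unadjusted, of which 0, 0, 0, 0 and 2 were members. Without the Brca1-KO-labelled replicate 1, which leaves 1 library in that group, edgeR called members in each class but T cell-like nuclei, beside other genes. The share over all genes is not known for these fits, so the calls are not a result about the members. Only the sizes of differences are given. Gsta3 was then higher by 2.10 on the log2 scale in endothelial-like and by 1.35 in stellate and mesenchymal-like nuclei, where Gstm1 was lower (log2 difference −1.503). The levels of Gsta3 in both classes were at or below the free RNA level in every library, as given above. In hepatocyte-like nuclei Gsta3 was also highest in the Brca1-KO-labelled replicate 2. For Sult2a8 in stellate and mesenchymal-like nuclei, also at or below the free RNA level, the direction turned with the library left out. It was higher without the Brca1-KO-labelled replicate 1 (log2 difference 0.75) and lower without replicate 2 (−1.02). The free RNA level of endothelial-like nuclei was 51.0% in the Brca1-KO-labelled replicate 2, which then stood alone for its group, against 33.2% and 32.2% in the Brca1-WT libraries. The part of free RNA in these differences was not tested.

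The genes that feed, complement, reverse and export conjugation were followed in lists from textbook knowledge. Between genotypes 0 were called in any list. Of 13 tested genes that supply cofactors, 2 were called pericentral and 4 periportal. Ugdh, which makes the UDP-glucuronic acid that UGT enzymes use, was at 127, 317, 253 and 345 CPM in the pericentral zone against 70.2, 169.7, 160.2 and 139 CPM in the periportal zone (log2 difference 0.93, standard error 0.10, edgeR adjusted p = 0.000407), higher in the pericentral zone of 4 libraries. Gsr, which regenerates glutathione, was pericentral (0.40), whereas Gss, the second enzyme of glutathione synthesis, and Cbs, which starts the path from homocysteine to cysteine, were periportal (−0.32 and −0.39). Of 14 other tested enzymes, mostly conjugating ones but with the epoxide hydrolases Ephx1 and Ephx2 among them, 3 were pericentral and 2 periportal. They included the microsomal transferase Mgst1 (0.55) toward the central vein, and the epoxide hydrolase Ephx2 (−0.45) and thiopurine methyltransferase Tpmt (−0.30) toward the portal tract.

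Among 5 tested enzymes that split conjugates or esters, 2 were pericentral and 1 periportal. Gusb, the β-glucuronidase that removes glucuronic acid, was at 6.76, 7.42, 6.82 and 6.67 CPM in the pericentral zone against 13.4, 17.3, 10.1 and 11.3 CPM in the periportal zone (−0.90, standard error 0.13, edgeR adjusted p = 0.000461), with 4 of 4 libraries higher in the periportal zone. The carboxylesterases Ces1d and Ces3a were pericentral (0.31 and 0.37), and the sulfatase Arsa was not called (−0.27). Of 6 exporters 4 were pericentral and 0 periportal. Abcc4, which carries conjugates across the sinusoidal membrane, was at 15.8, 11.03, 15.002 and 13.6 CPM in the pericentral zone against 1.40, 0.725, 1.40 and 1.49 CPM in the periportal zone (3.44, standard error 0.16, edgeR adjusted p = 2.12e-07), with no overlap of the groups. Abcc3, Abcg2 and Abcc2, the last the canalicular exporter of bilirubin glucuronide, had differences of 0.87, 0.74 and 0.41. Of 17 regulators 6 were pericentral and 2 periportal. Ahr, the aryl hydrocarbon receptor, was at 281, 270.1, 236 and 422 CPM in the pericentral zone against 52.4, 27.5, 41.1 and 45.5 CPM in the periportal zone (2.85, standard error 0.20, edgeR adjusted p = 0.00111). The receptors Nr1i3 (CAR, 1.02) and Rxra (0.46) and the factor Nfe2l2 (Nrf2, 0.34) were called in the same direction.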

How the data were processed

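Single-nucleus RNA was counted per gene and barcode in 4 libraries, 2 of each Brca1 label. The deposited values are raw UMI counts, which the authors made, per the file headers, with Cell Ranger 6.0.0. The submitters' processing notes name the human build GRCh38, while the gene identifiers in the files are of the mouse; the mouse build, the counting of introns and the use of strand were not given in the sources used here, while the labels call the molecule genomic DNA. Library totals were 36662067 to 45638888 UMIs.

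Nuclei with at least 500 genes and at most 5% mitochondrial UMIs were kept, Scrublet calls (expected doublet rate 0.06; 2.99% to 11.3% of nuclei) were removed, and nuclei were clustered in scanpy 1.11.5 on 2000 variable genes (2 of them members), 30 principal components and 15 neighbours, with python-igraph 0.11.9 at resolution 1. Clusters were named from marker lists by a detection score that replaced a first one after its output had been seen; 3 of 20 clusters (364 nuclei, 1.53%) stayed unnamed. Counts were summed per library and class, or per zone of the zone score. Sums were tested with edgeR 4.0.16 (TMM, filterByExpr, robust quasi-likelihood test) in R 4.3.3 with Benjamini-Hochberg adjustment over all genes, called below 0.05; DESeq2 1.42.0 was an alternative. On simulated counts with 200 changed genes per fit, the script was tested first.

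Values were given per library for members with a mean of at least 20 CPM in hepatocyte-like nuclei, for members at least 3 times over the free RNA level with at least 20 UMIs in another class, for up to 8 called members of largest zone difference each way, and for the 6 of smallest unadjusted p between genotypes. Other members given with values, and the 10 groups along the score, the family medians per library, the 3′ comparison, the motifs and the Gpc3-led cluster, were added after the data had been seen. Members and lists were chosen with earlier results of these data known. Alternatives left out each library, the filter, the depth of nuclei or clusters, or changed the tool, the cuts or the score genes. Counting intervals cover counting error only.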

Additional observations from a re-analysis of the deposited data

How the results depend on the processing

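The 16 pericentral and 3 periportal calls among members were 14 to 18 and 3 to 4 when each library was left out in turn, 14 and 3 with DESeq2, 22 and 4 without a filter on low counts, 17 and 3 with a common cut, 18 and 3 with a shorter list of score genes, 16 and 3 when members took no part in clustering and 16 and 4 without the Gpc3-led cluster. After thinning to 1000 UMIs they were 12 and 1, and the counts over all genes 648 and 730, with fewer genes tested. Between genotypes in hepatocyte-like nuclei, 0 members were called under every alternative run. The count over all genes was 0 to 30 when 1 library was left out (30 without the Brca1-KO-labelled replicate 1), 23 with DESeq2 and 2 without a filter on low counts.

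Leaving out 1 library gave 0 to 7 called members and 0 to 606 genes in endothelial-like, 0 to 5 and 0 to 425 in stellate and mesenchymal-like, 0 to 6 and 0 to 522 in Kupffer and macrophage-like, 0 and 0 to 77 in T cell-like and 0 to 1 and 0 to 142 in B cell-like nuclei, where DESeq2 called 1 gene. Each highest count was without the Brca1-KO-labelled replicate 1, which leaves 1 library in that group. The share over all genes is not known there, so these member counts are not a result about the members. Within zones the same omission gave 66, 14 and 127 genes (0 to 66, 0 to 14 and 0 to 127 over libraries) and 0 to 1 members in the periportal zone. The cause was not tested.

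With the replicate number as a block, 0 genes and 0 members were called in hepatocyte-like nuclei, and it changed no other call. The numbers pair no samples by the labels; deviations of same-numbered libraries correlated at −0.11 over genes (2 pairs), and crossing the numbers also gave 0 calls. The 4 members at least 3 times above the free RNA level in stellate and mesenchymal-like nuclei were 3 with doublets kept. Members with few UMIs, such as Gstm3, Gsto2 and Sult2a2, are limited by depth.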

Other observations

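A small cluster of hepatocyte-like nuclei differed in its conjugation enzymes from the other hepatocyte-like nuclei of the same library. It is called Gpc3-led above only because Gpc3, an oncofetal proteoglycan, was among its leading genes. Cyp2b9 and other genes ranked above Gpc3. The cluster held 150 nuclei of Brca1-WT replicate 1, 22 of replicate 2 and 0 of either Brca1-KO-labelled library. The genes below were chosen after their values were seen, and the intervals, exact Poisson at 95%, cover counting error only. In Brca1-WT replicate 1 the bile acid sulfotransferase Sult2a8 was at 120.2 CPM (102 to 141) in the cluster and 1139.7 CPM in the other hepatocyte-like nuclei. The glycosyltransferase Ugt3a2 was at 18.6 CPM (11.8 to 27.9) against 195 CPM, and Ugt3a1 at 6.46 CPM (2.79 to 12.7) against 56.9 CPM. Gsta2 had 2 UMIs there, 1.61 CPM (0.195 to 5.83) against 50.8 CPM. Ugt2b1 and Ugt2b34 were also lower in the cluster, at 26.6 against 82.2 CPM and 14.5 against 54.7 CPM. In the other direction, the oestrogen sulfotransferase Sult1e1 was at 19.4 CPM (12.4 to 28.8) against 2.17 CPM, Gstt1 at 132 CPM (113 to 154) against 35.2 CPM and Gstp2 at 34.7 CPM (25.1 to 46.7) against 13.5 CPM. Gstz1 differed little, at 248 CPM (221 to 277) against 297 CPM. In Brca1-WT replicate 2, with 22 nuclei, Sult2a8 was at 55.6 CPM (26.7 to 102) against 1037 CPM and Sult1e1 at 33.4 CPM (12.2 to 72.6) against 3.84 CPM. Sult1a1 was again higher, at 323 CPM (245 to 417) against 212 CPM. Gstp1 was again lower, at 11.1 CPM (1.35 to 40.2) against 52.6 CPM. Ugt3a2, Ugt3a1, Gsta2 and Ugt2b1 were also lower again, at 16.7, 0, 5.56 and 0 CPM against 145, 33.5, 71.1 and 53.8 CPM. For Gstp2, Gstt1 and Ugt2b34 the interval there held the level of the other nuclei. Gstp2 was at 27.8 CPM (9.03 to 64.9) against 38.3 CPM and Gstt1 at 72.3 CPM (38.5 to 124) against 52.7 CPM. Ugt2b34 was at 38.9 CPM (15.7 to 80.2) against 53.4 CPM. Of the 150 nuclei of Brca1-WT replicate 1, 92 lay in the periportal zone of the zone score, 50 in the middle and 8 in the pericentral zone. The 22 of replicate 2 lay mostly in the middle zone, with 16 there and 3 in each of the others.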
